A study of Saccharomyces cerevisiae BY4741 with 6 samples.

Results

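The comparison described here set an SPP1 deletion strain of budding yeast against its wild type at 60 min after transfer to galactose medium, gene by gene, in nascent transcription. All 5186 genes with a mean count of at least 10 over the 6 libraries of the study were taken, of 5219 genes in the table. Each strain was represented by 1 library, so that no difference has a replicate check and no test was made. Ratios are therefore given with exact 95% intervals that cover counting error only, and the spread between cultures of a strain is unknown.

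The deletion strain carried spp1::KanMX6 together with RPB3-3xFLAG-HisMX6, and the wild type carried RPB3-3xFLAG-His3MX6 alone. Both were built in BY4741, a haploid laboratory strain of the a mating type, so that a tagged Rpb3 subunit of RNA polymerase II was shared by every library. Cells grew in YPD, a rich glucose medium, were centrifuged and resuspended in prewarmed YPG, the same medium with galactose, and were collected by filtration. The sources used here do not say whether the deletion was 1 clone. The study also sampled both strains in glucose and at 15 min in galactose, again with 1 library each, and those pairs are used only to place the values at 60 min.

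NET-seq, native elongating transcript sequencing, reads the RNA held by RNA polymerase II and so reports how much transcribing polymerase each gene holds at the time of harvest. Spp1 is the PHD-finger subunit of COMPASS, the complex with the methyltransferase Set1 that methylates histone H3 on lysine 4 at the start of transcribed genes. Spp1 is known to be needed for full trimethylation at that residue and, in meiosis, to tether recombination sites to the chromosome axis. A move from glucose to galactose makes yeast lift glucose repression, set up the galactose enzymes and respiratory metabolism, and slow and then resume ribosome production and division.

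The deletion library at 60 min held 1162190 counts, the lowest total of the study, and the wild-type library held 1459874. The median gene had 135 counts in the deletion and 175 in the wild type. By library totals alone, 1 count equalled 0.860 CPM (counts scaled to a common library total) in the deletion and 0.685 CPM in the wild type. The CPM values and ratios below also carry the scaling factors given under processing. On chromosome XI, the 147 measured genes that start at MTC2 or lie to its right have uncertain values, since their W-strand members had a median of 97.5 counts in both 60 min libraries together and their C-strand members 181. Paralogs and overlapping genes are uncertain too, since it is not stated how shared reads were counted. In whole cultures, fewer cells transcribing a gene and less transcription per cell cannot be told apart. Nor can counts per gene separate how often transcription starts from how fast the polymerase moves.

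SPP1 (YPL138C, chromosome XVI, 291366 to 292427) had 0 counts in the deletion library and 131 in the wild-type library. With a floor of 3 counts for the empty library, its level was at least 34.3-fold lower in the deletion. The nearest measured genes on either side were transcribed in both strains. UME1 had 68 counts in the deletion and 132 in the wild type, a log2 ratio of -0.60 (interval -1.05 to -0.17), and GIP3 had 269 and 359 counts in the same order, a log2 ratio of -0.07 (interval -0.30 to 0.17). Genes that mark a cells were read in both libraries. The a-factor receptor gene STE2 had 577 counts in the deletion and 1145 in the wild type. The alpha-agglutinin gene SAG1, an alpha-cell marker, had 17 and 24 counts in the deletion and the wild type. HIS3, which is partly deleted in BY4741, had 129 counts in the deletion and 122 in the wild type.

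The genes that were higher in the deletion were led by the mannoprotein gene TIR1, the peroxiredoxin gene TSA2 and the sterol genes ERG25 and ERG3, and those that were lower included the mating genes SST2, AGA1 and MFA1 and the glycolytic gene TDH2. Ribosomal protein genes were slightly lower as a group, with a median of -0.40. Over all genes the log2 ratio had a median of -0.00046 with quartiles of -0.21 and 0.20. At least 2-fold differences were seen in 88 genes, which is 1.7% of those measured: 62 were higher in the deletion (1.2%) and 26 were lower (0.501%). The counting interval lay above 0 in 754 genes (14.5%) and below 0 in 723 (13.9%), and the ratio itself was above 0 in 49.9% and below 0 in 50.1%. These shares are the background against which each gene group below is read.

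Weakly read genes scattered about as much as counting error gives. Of the 62 genes past 2-fold higher, 27 had under 50 counts in both libraries together and 9 had an interval that included 0. Only 14 of the 62 and 5 of the 26 lower genes, the deleted SPP1 among them, had intervals wholly beyond 2-fold. Among genes with fewer than 50 summed counts the robust SD of the ratio was 0.55, close to the 0.53 that counting error gives, around a median of 0.27, whereas among the 512 genes with 1000 or more summed counts it was 0.32 against a counting error of 0.08. For well-read genes the scatter of ratios thus exceeded the counting error, which the intervals below leave out.

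**Figure D1:**
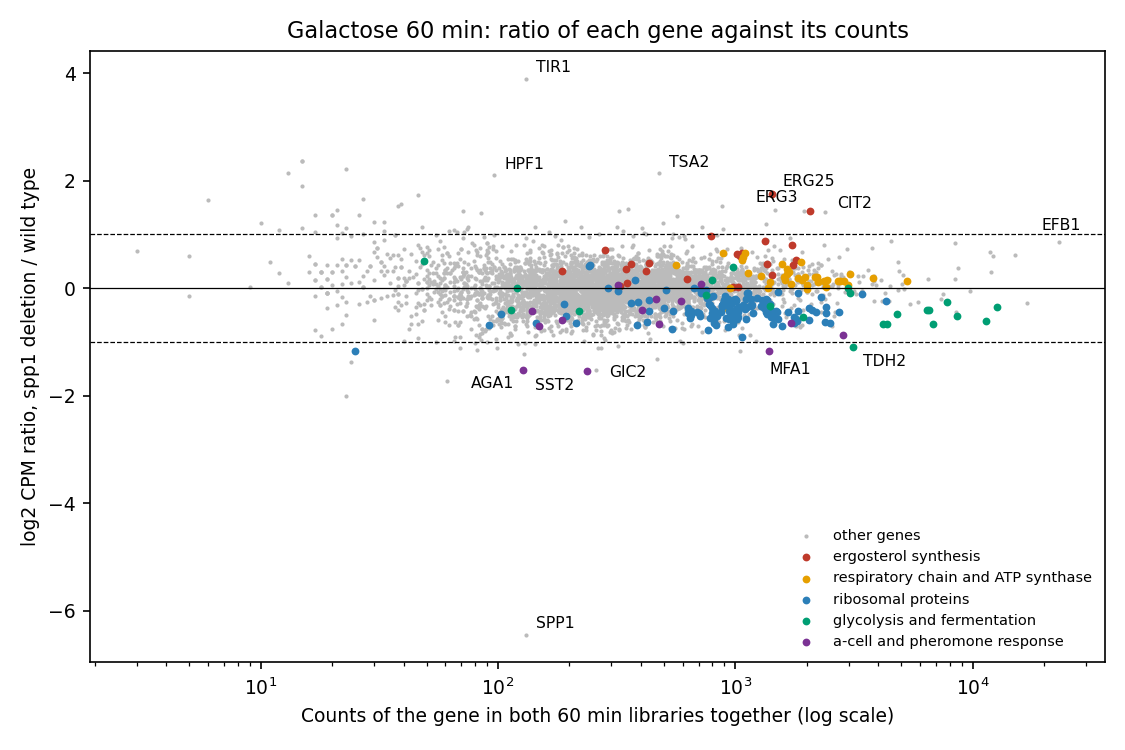
Log2 ratio of CPM, spp1 deletion over wild type at 60 min in galactose, against the summed count of the gene in both libraries on a log scale. Each point is 1 gene, coloured points are members of 5 gene lists, and dashed lines mark 2-fold. The scatter is widest at low counts, TIR1 stands highest at 3.90, SPP1 lies alone at the bottom, and the ribosomal protein genes sit mostly below 0.

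Ergosterol is the main membrane sterol of yeast, made from acetyl-CoA through mevalonate, squalene and lanosterol, with oxygen and heme used in the late steps. All 23 measured genes of ergosterol synthesis had a ratio above 0 at 60 min, with a list median of 0.46, and 17 had an interval above 0 and 0 below it. ERG25, the C-4 methyl oxidase gene, had 1038 counts in the deletion and 392 in the wild type, 3.36-fold higher (log2 1.75, interval 1.59 to 1.93). The C-5 desaturase gene ERG3 had 1407 counts in the deletion and 660 in the wild type (log2 1.44, interval 1.31 to 1.58). These were the members past 2-fold. The C-14 reductase gene ERG24 (479 and 309 counts in the deletion and the wild type, log2 0.98, interval 0.77 to 1.19) lay just inside that limit.

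Members varied along the whole pathway. ERG28, whose protein holds the C-4 demethylation enzymes together, stood at 0.87 (interval 0.72 to 1.04), the C-24 methyltransferase gene ERG6 at 0.81 (0.67 to 0.95) and the lanosterol synthase gene ERG7 at 0.71 (0.37 to 1.07). Of the early genes, the thiolase gene ERG10 stood at 0.25 (interval 0.09 to 0.40), the HMG-CoA reductase gene HMG1 at 0.32 (0.04 to 0.60) and the mevalonate decarboxylase gene MVD1 at 0.46 (0.16 to 0.77). MVD1 was the highest of the early genes, and ERG8, ERG20 and ERG12 stood at 0.03, 0.03 and 0.04. The late genes ERG1 at 0.44, ERG5 at 0.45 and ERG27 at 0.17 overlapped the early ones. Other late genes, among them ERG25, ERG3, ERG24, ERG28 and ERG6, stood above every early gene. The 6 members whose interval covered 0 were ERG8, ERG12, ERG20, ERG27, ERG29 and HMG2, at ratios between 0.03 and 0.33. The strain difference in this list was smaller at 60 min than in the other conditions, with a median of 0.46 at 60 min, 0.86 at 15 min and 1.03 in glucose. For ERG3, the 60 min ratio was lower than the 15 min ratio by a log2 difference of -2.30 (counting interval -2.68 to -1.92), and for ERG28 it was lower than the glucose ratio by -1.36 (interval -1.59 to -1.13). ERG24 stood at 0.98, 0.99 and 1.11 at 60 min, 15 min and in glucose, so its values overlapped throughout.

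Genes that regulate sterols, take them up or modify them gave a median of 0.36, with 8 of 17 intervals above 0 and 1 below. ATF2, whose acetyltransferase acts on alcohols and steroids, had 612 counts in the deletion and 270 in the wild type (log2 1.52, interval 1.32 to 1.74). Cytochrome b5, an electron donor to sterol and lipid desaturation, is encoded by CYB5, which had 378 counts in the deletion and 190 in the wild type (log2 1.33, interval 1.09 to 1.60). Its redox partner gene NCP1 had 368 and 247 counts (log2 0.92, interval 0.69 to 1.16), and UPC2, which encodes a transcription factor that activates sterol genes, had 46 and 32 (log2 0.84, interval 0.19 to 1.57), each in the deletion and the wild type. NSG2, which encodes a regulator of HMG-CoA reductase stability, stood at 0.93 (interval 0.68 to 1.19), while its relative NSG1 stood at -0.37 (interval -0.71 to -0.04). The relatives thus lay on opposite sides of 0, but NSG2 overlaps another annotated gene.

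Fatty acid synthesis did not share the sterol pattern as a group. Its 14 measured genes had a median of 0.07, with 3 intervals above and 3 below 0. The elongase genes ELO1, ELO2 and ELO3 were the members below, at -0.63 (interval -0.84 to -0.42), -0.86 (-1.26 to -0.49) and -0.75 (-1.09 to -0.43). OLE1, the only fatty acid desaturase gene of yeast, had 265 counts in the deletion and 219 in the wild type (log2 0.62, interval 0.36 to 0.89). ELO1 had a ratio of -1.85 at 15 min and -2.004 in glucose, both further below 0 than at 60 min.

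Cell-wall mannoproteins held the highest single gene. TIR1 (YER011W, chromosome V, 175248 to 176012), whose mannoprotein is known from cells grown cold or without oxygen, had 122 counts in the deletion and 9 in the wild type, 14.9-fold higher (log2 3.90, interval 3.14 to 5.27). Its ratio was 4.85 at 15 min and 4.67 in glucose, and the counting intervals of the differences from both included 0. HPF1, which encodes a haze-protective mannoprotein, had 75 and 21 counts in the deletion and the wild type (log2 2.11, interval 1.47 to 2.96), above its 15 min ratio of 0.69. TIR3 (48 and 27 counts, log2 1.14, interval 0.47 to 1.92) and PIR3 (201 and 116 counts, log2 1.13, interval 0.81 to 1.48) were also past 2-fold higher in the deletion.

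Other mannoprotein genes lay near or below 0. The list of 17 had a median of -0.10, and 6 of its members had an interval below 0. TIP1, a relative of TIR1, had 519 counts in the deletion and 1060 in the wild type (log2 -0.68, interval -0.84 to -0.53), and CIS3, a gene of the PIR family as PIR3 is, had 633 and 1224 (log2 -0.60, interval -0.74 to -0.46). The most read wall gene, CCW12, had 6675 counts in the deletion and 10348 in the wild type, a small log2 ratio of -0.28 (interval -0.33 to -0.24). The list therefore held both the highest ratio at 60 min and a majority of ratios below 0, 9 of 17. Reads shared by similar TIR genes could not be separated.

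Other genes among the highest are set side by side here after their values were seen. Some, but not all, act on citrate or acetyl units. CIT2, which encodes the peroxisomal citrate synthase and is the standard reporter of the retrograde response from mitochondria to nucleus, had 1613 counts in the deletion and 771 in the wild type, 2.66-fold higher (log2 1.41, interval 1.29 to 1.54). DLD3, a cytosolic dehydrogenase gene of the same response, had 868 and 480 counts in the deletion and the wild type (log2 1.20, interval 1.04 to 1.37). CIT3, a mitochondrial citrate and methylcitrate synthase gene, had 321 and 175 (log2 1.22, interval 0.95 to 1.50). In each of these the deletion library lay above the wild-type library well beyond counting error.

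The carnitine shuttle carries acetyl groups between peroxisome, cytosol and mitochondrion. The carnitine acetyltransferase gene YAT2 had 242 counts in the deletion and 110 in the wild type (log2 1.47, interval 1.16 to 1.83), and the mitochondrial carnitine carrier gene CRC1 had 125 and 66 (log2 1.25, interval 0.83 to 1.72). AGP2, a gene for carnitine uptake, had 487 and 489 counts (log2 0.34, interval 0.16 to 0.53). ATO2, a gene for a putative exporter of ammonia at the plasma membrane, had 1323 counts in the deletion and 626 in the wild type (log2 1.43, interval 1.29 to 1.57). Next to CIT3 on chromosome XVI, PDH1, which encodes 2-methylcitrate dehydratase, had 512 and 327 counts (log2 0.99, interval 0.79 to 1.20). Of 7 genes listed as retrograde targets after these values were seen, 5 had an interval above 0 and 2 covered it, ACO1 at 0.08 and IDH2 at 0.08. At 15 min the list had a median of -0.06, with 2 intervals above 0 and 3 below. In glucose its median was -0.22, with 3 above and 4 below. That list includes CIT2, so its count is not separate from the values above.

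In the other conditions these genes were not alike. YAT2, ATO2, CRC1 and PDH1 had ratios between 0.07 and 0.17 at 15 min and between -0.32 and 0.11 in glucose. In glucose CIT2, DLD3 and CIT3 had larger ratios, with intervals above 0 for CIT2 (0.60 to 0.88) and DLD3 (0.46 to 0.72). The interval of CIT3 covered 0 both in glucose (-0.06 to 1.77) and at 15 min (-0.08 to 0.79). For ATO2 the 60 min ratio exceeded the 15 min ratio by 1.30 (counting interval 1.11 to 1.48) and the glucose ratio by 1.54 (interval 0.75 to 2.33). DLD3 had ratios of 0.34 at 15 min and 0.59 in glucose, and CIT3 of 0.35 and 0.72. CIT2 had ratios of 0.19 at 15 min and 0.74 in glucose, and its 60 min ratio exceeded them by 1.23 (interval 1.07 to 1.38) and 0.67 (interval 0.49 to 0.86). Each condition rests on its own pair of libraries, so these differences have no replicate check either.

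Mitochondrial energy genes were slightly higher in the deletion as groups. In the tricarboxylic acid cycle list, which includes CIT2 and CIT3, the median of 21 genes was 0.24, with 14 intervals above 0 and 0 below. CIT1, which encodes the mitochondrial citrate synthase, had 1478 counts in the deletion and 1264 in the wild type (log2 0.57, interval 0.47 to 0.68), and the fumarase gene FUM1 stood at 0.56 (interval 0.36 to 0.76). Among 38 genes of the respiratory chain and ATP synthase the median was 0.18, and 28 intervals lay above 0. The 1 interval below belonged to CYC1, a cytochrome c gene, with 348 counts in the deletion and 580 in the wild type (log2 -0.39, interval -0.58 to -0.19).

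Examples of the respiratory group were modest in size. The cytochrome c1 gene CYT1 stood at 0.66 (interval 0.46 to 0.85), the succinate dehydrogenase gene SDH1 at 0.65 (0.48 to 0.83) and the cytochrome oxidase gene COX4 at 0.58 (0.41 to 0.76), and 0 members reached 2-fold. At 15 min the same list had a median of -0.22 with 24 of 38 intervals below 0. The direction at 60 min was thus the opposite of that 15 min after the shift. Genes for mitochondrial ribosomal proteins had a median of 0.01 at 60 min, with 4 of 63 intervals above and 4 below 0.

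Stress genes driven by the transcription factors Msn2 and Msn4 were higher in the deletion in 20 of 27 members by the counting interval, and 0 lay below, with a median of 0.30. SPG4, a gene of stationary-phase survival, had 1002 counts in the deletion and 464 in the wild type (log2 1.46, interval 1.30 to 1.62). SIP18, a hydrophilin gene of desiccation tolerance, had 222 and 103 counts (log2 1.44, interval 1.11 to 1.81), and the small heat shock protein gene HSP26 had 554 and 330 (log2 1.09, interval 0.90 to 1.30). Among the most read genes of all, HSP12 had 6588 counts in the deletion and 5277 in the wild type (log2 0.67, interval 0.62 to 0.72). The list median was 0.02 at 15 min and 0.09 in glucose, and the lists of stress and respiratory genes were both far above their glucose level in both strains at 60 min.

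TSA2, which encodes a cytosolic peroxiredoxin, had 370 counts in the deletion and 106 in the wild type (log2 2.14, interval 1.84 to 2.48). It stood at 1.74 at 15 min and 0.64 in glucose. The peroxiredoxin gene AHP1 stood at 0.76 (interval 0.66 to 0.85) and the old yellow enzyme gene OYE3 at 0.79 (0.20 to 1.43), while the oxidative defence list as a whole had a median of 0.06, with 5 of 21 intervals above 0 and 0 below. AZR1, a transporter gene of azole resistance, ranked among the highest from few counts, 19 in the deletion and 4 in the wild type (log2 2.22, interval 1.01 to 4.61). Proteasome genes gave a median of 0.19 with 16 of 33 intervals above 0 and 0 below, and RPN4, which encodes their activator, stood at 0.51 (interval 0.31 to 0.71).

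Heat shock chaperones lay on both sides of 0. The 26 genes of the Hsf1 list had a median of 0.02, with 6 intervals above and 7 below 0. SSA2, an abundant Hsp70 gene, had 223 counts in the deletion and 502 in the wild type (log2 -0.82, interval -1.06 to -0.59), and the ribosome-associated Hsp70 genes SSB1 and SSB2 stood at -0.60 (interval -0.87 to -0.34) and -0.46 (-0.69 to -0.23). The Hsp40 gene SIS1 stood at 0.37 (interval 0.22 to 0.52) and the disaggregase gene HSP104 at 0.24 (0.07 to 0.42). At 15 min this list had a median of 0.36 with 22 intervals above 0 and 0 below. Storage carbohydrate genes had a median of 0.03, and within them the trehalase gene NTH1 stood at 0.63 (interval 0.38 to 0.90) and the glycogen synthase gene GSY1 at -0.29 (interval -0.44 to -0.13).

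**Figure D2:**
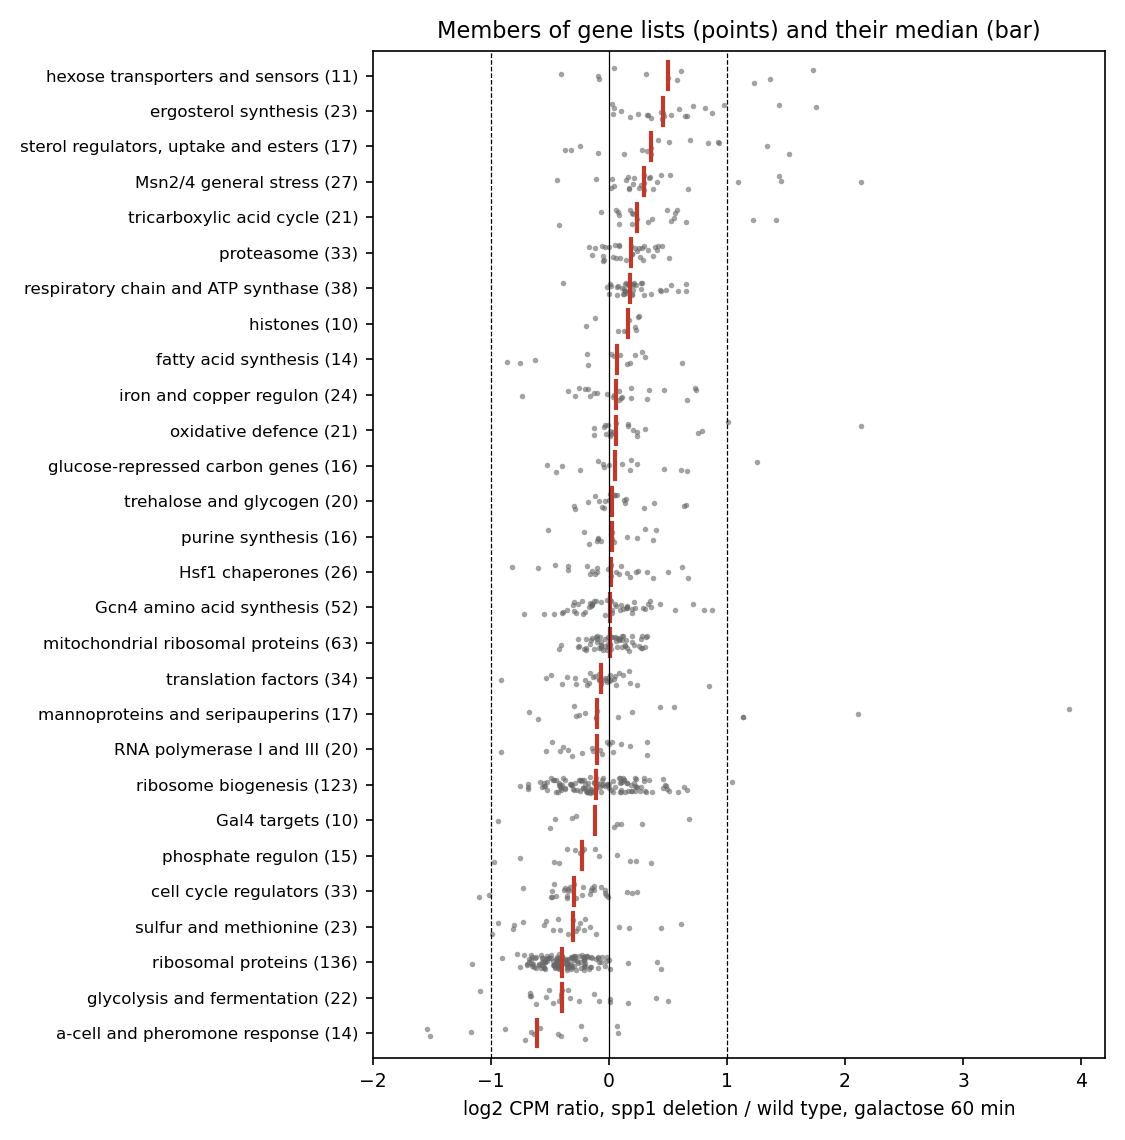
Log2 ratio of CPM, spp1 deletion over wild type at 60 min in galactose, for the members of each gene list with 10 or more genes (points) and the list median (red bar), ordered by median. Numbers in brackets are genes measured, dashed lines mark 2-fold, and SPP1 is in none of the lists drawn. Medians run from -0.61 for the a-cell and pheromone response list to 0.50 for hexose transporters and sensors.

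The mating genes of a cells had the lowest median of the lists with 10 or more genes. Pheromone signalling in haploid yeast runs from the receptor through a G protein and a kinase cascade to the transcription factor Ste12, which drives mating genes. Of 14 measured genes, 9 had an interval below 0 and 0 above, with a median of -0.61. In glucose 12 of the 14 had an interval below 0, with a median of -0.46, and at 15 min 5 did, with a median of -0.17. SST2, which encodes the GTPase-activating protein that turns the signal off, had 50 counts in the deletion and 188 in the wild type, 2.91-fold lower (log2 -1.54, interval -2.04 to -1.10). AGA1, the gene for the wall anchor of a-agglutinin, had 27 and 101 counts (log2 -1.51, interval -2.22 to -0.93).

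The a-factor genes were low as well. MFA1 had 358 counts in the deletion and 1030 in the wild type (log2 -1.17, interval -1.35 to -1.0003), and MFA2 had 848 and 1986 (log2 -0.88, interval -0.996 to -0.76). The transcription factor gene STE12 had 48 counts in the deletion and 101 in the wild type (log2 -0.71, interval -1.25 to -0.21). The receptor gene STE2 (log2 -0.64, interval -0.79 to -0.49) and the agglutinin gene AGA2 (log2 -0.66, interval -0.95 to -0.39) were lower too. For MFA1 and MFA2 the 60 min ratio lay below the glucose ratio by -0.59 (counting interval -0.79 to -0.39) and -0.42 (interval -0.56 to -0.29), whereas for AGA1 the ratio was similar in all conditions, -1.25 at 15 min and -1.24 in glucose. AFB1, an a-factor barrier gene of alpha cells, had 11 and 29 counts (log2 -0.97, interval -2.20 to -0.01).

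Cell cycle regulators had a median of -0.30 over 33 genes, with 13 intervals below 0, 0 above and 20 that covered it. The list was low in the other conditions too, with a median of -0.16 and 6 intervals below 0 at 15 min, and a median of -0.22 and 19 below 0 in glucose. RNR1, which encodes the large subunit of ribonucleotide reductase, had 169 counts in the deletion and 436 in the wild type (log2 -1.01, interval -1.28 to -0.76). The S-phase cyclin gene CLB6 had 26 and 73 counts (log2 -1.10, interval -1.85 to -0.48), and SWI5, which encodes a transcription factor of mitotic exit, had 133 and 282 (log2 -0.73, interval -1.04 to -0.43). RNR1 had a ratio of 0.48 at 15 min and -0.01 in glucose, and its 60 min ratio lay below the glucose ratio by -0.999 (counting interval -1.27 to -0.72).

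Several single genes were past 2-fold lower. GIC2, which encodes an effector of the polarity GTPase Cdc42, had 55 counts in the deletion and 205 in the wild type (log2 -1.53, interval -2.01 to -1.11), with ratios of 0.01 at 15 min and -0.53 in glucose. UTR2, a cell-wall transglycosylase gene, had 269 and 773 counts (log2 -1.17, interval -1.38 to -0.97), RTT107, a DNA repair scaffold gene, had 32 and 97 (log2 -1.22, interval -1.87 to -0.66), and IQG1, a gene for cytokinesis, had 86 and 233 (log2 -1.08, interval -1.46 to -0.73). In a list of 34 G1/S genes drawn up after these values were seen, 11 had an interval below 0 and 0 above. The shares over all genes were 13.9% and 14.5%. That list includes GIC2, and 5 of its members were past 2-fold lower, so its count is not separate from the values above. Histone genes, which are transcribed in S phase, had a median of 0.16, with 4 of 10 intervals above 0 and 0 below. HTA1, the most read of them, had 1257 counts in the deletion and 1354 in the wild type (log2 0.24, interval 0.13 to 0.35).

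AIM20 (112 and 356 counts in the deletion and the wild type, log2 -1.31, interval -1.64 to -1.01) and SFG1 (72 and 199 counts, log2 -1.10, interval -1.53 to -0.72) were also past 2-fold lower. The DNA ligase IV gene DNL4, used in end joining, had 11 counts in the deletion and 50 in the wild type (log2 -1.73, interval -2.93 to -0.87). HIM1 had 3 and 20 counts (log2 -2.01, interval -4.78 to -0.63). Its interval is the widest of these 4, of which only that of AIM20 lies wholly beyond 2-fold.

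**Figure D3:**
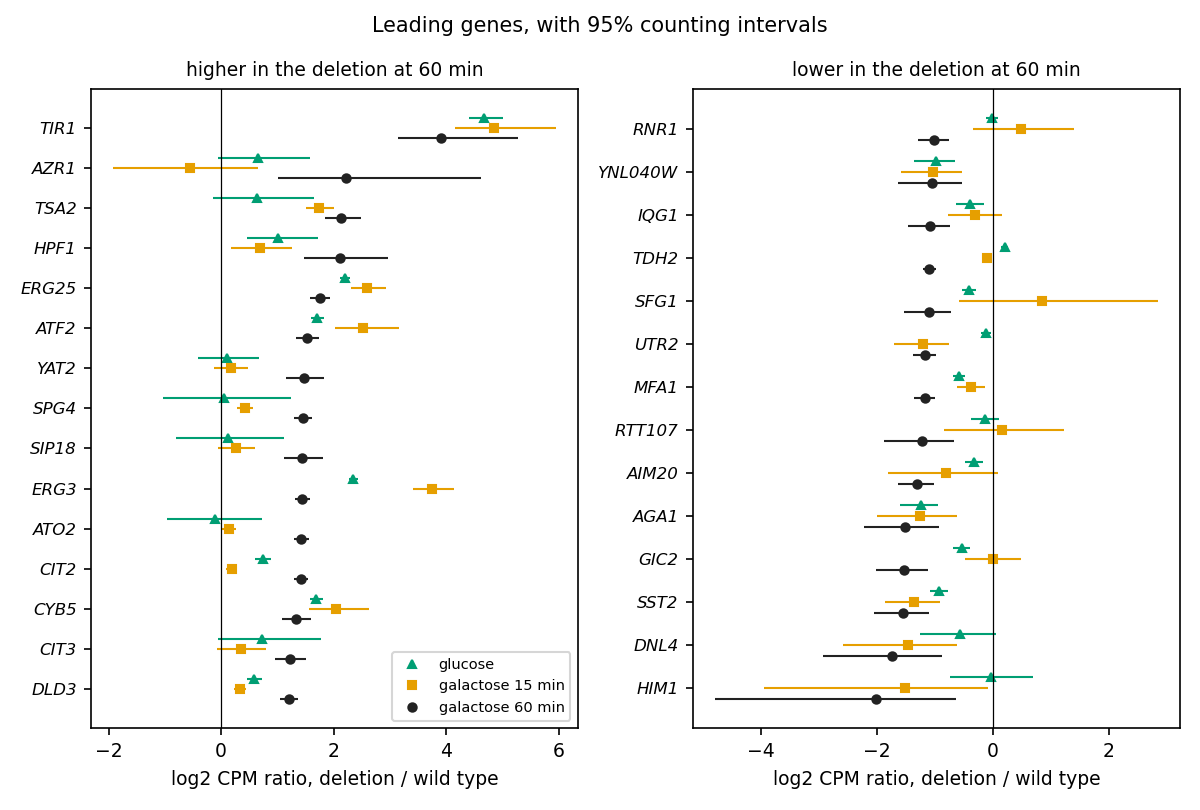
Log2 ratio of CPM, spp1 deletion over wild type, for the 15 genes highest and 14 genes lowest in the deletion at 60 min, with the same ratio in glucose (green triangles), at 15 min (orange squares) and at 60 min in galactose (black circles). Lines are 95% counting intervals from 1 library per strain and condition. TIR1 and ERG25 lie right of 0 in every condition, while ATO2, YAT2 and TDH2 lie far from 0 at 60 min and between -0.11 and 0.21 in the others.

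Glycolysis and fermentation were lower as a group at 60 min, with a median of -0.40 over 22 genes, 14 intervals below 0 and 1 above. TDH2, one of 3 genes for glyceraldehyde-3-phosphate dehydrogenase, had 844 counts in the deletion and 2292 in the wild type, 2.13-fold lower (log2 -1.09, interval -1.21 to -0.98). The enolase gene ENO2 had 1435 and 2912 counts (log2 -0.67, interval -0.76 to -0.58), and ADH1, which encodes the main alcohol dehydrogenase of fermentation, had 2256 and 4575 (log2 -0.67, interval -0.74 to -0.60). The pyruvate kinase gene CDC19 stood at -0.66 (interval -0.75 to -0.57) and the phosphoglycerate kinase gene PGK1 at -0.62 (-0.68 to -0.56). ADH3, the mitochondrial alcohol dehydrogenase gene, was the member above 0 by its interval (log2 0.40, interval 0.21 to 0.58).

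In the other conditions this list stood slightly above 0, with medians of 0.06 at 15 min and 0.11 in glucose, where 12 of 22 intervals lay above 0. TDH2 itself had ratios of -0.10 at 15 min and 0.21 in glucose, and its 60 min ratio lay below these by -0.99 (counting interval -1.13 to -0.86) and -1.30 (interval -1.43 to -1.17). TDH2 stood at 1920 CPM in the deletion at 15 min, against 2055 CPM in the wild type, and at 693 CPM in the deletion at 60 min, against 1476 CPM in the wild type. Reads that the TDH paralogs share could not be separated.

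Ribosomal protein genes lay below 0 almost throughout. Of 136 genes, 131 had a ratio below 0, 111 had an interval below 0 and 2 above, and the median was -0.40, with 1 gene past 2-fold. RPL5 had 314 counts in the deletion and 751 in the wild type (log2 -0.91, interval -1.10 to -0.72), and RPS3 had 516 and 1065 (log2 -0.69, interval -0.85 to -0.54). The exceptions by interval were RPS8B at 0.44 (interval 0.07 to 0.82) and RPL15B at 0.40 (0.03 to 0.78). The gene past 2-fold, RPS21A, had 6 and 19 counts, with an interval of -2.93 to 0.07, and is among the uncertain genes of chromosome XI. The summed counts of the group were 4.75% of the deletion library and 6.28% of the wild-type library, against 3.00% and 3.11% at 15 min and 15.9% and 16.6% in glucose in the same order.

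Ribosome assembly genes lay on both sides of 0. The 123 ribosome biogenesis genes had a median of -0.11, with 5 intervals above and 7 below 0, and were read at low depth, with a median interval half-width of 0.60 log2 units. NOP58 and NOP56, core proteins of box C/D snoRNPs, stood at -0.68 (interval -1.06 to -0.32) and -0.53 (-0.86 to -0.20), whereas RPF1, an assembly factor gene of the large subunit, stood at 1.04 (0.37 to 1.83). Genes of RNA polymerases I and III had a median of -0.10, with 3 of 20 intervals below 0 and 0 above. Among 34 translation factor genes the median was -0.07, with 7 intervals below 0. The 1 above was EFB1, which had 13503 counts in the deletion and 9541 in the wild type (log2 0.85, interval 0.81 to 0.89), but it overlaps another annotated gene.

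**Figure D4:**
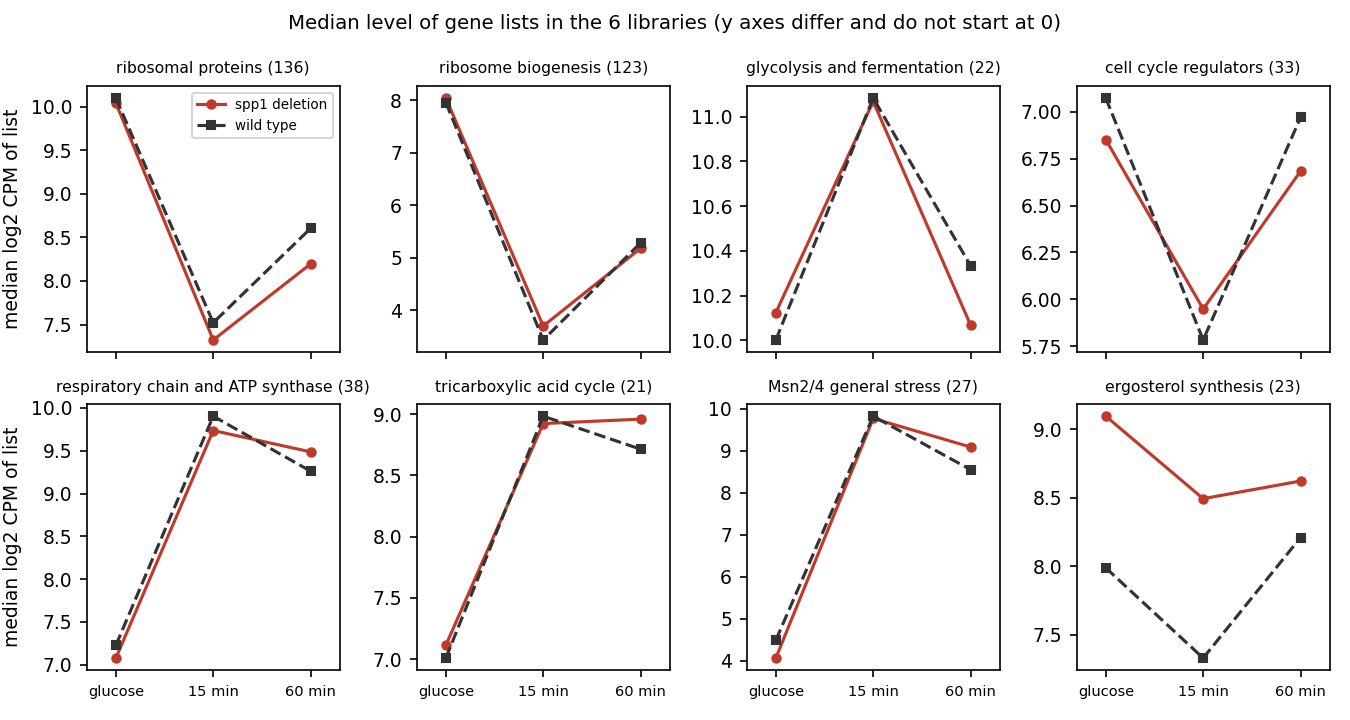
Median log2 CPM of 8 gene lists in the 6 libraries, spp1 deletion (red circles, solid) and wild type (black squares, dashed), in glucose and at 15 and 60 min in galactose. Each point is 1 library and the number in brackets is the genes measured. At 60 min the ribosomal protein median was 8.20 in the deletion and 8.60 in the wild type, and the tricarboxylic acid cycle median 8.96 and 8.71. The ergosterol lines are separate in every condition.

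Nutrient pathways gave smaller and mixed differences. Sulfur and methionine genes had a median of -0.31, with 10 of 23 intervals below 0 and 2 above. The S-adenosylmethionine synthetase gene SAM1 had 65 counts in the deletion and 166 in the wild type (log2 -0.99, interval -1.44 to -0.58), and CBF1, which encodes a transcription factor of the sulfur genes and of centromeres, had 126 and 310 (log2 -0.94, interval -1.26 to -0.65). The methionine permease gene MUP1 had 341 and 722 (log2 -0.73, interval -0.92 to -0.55), whereas MET13, a methylenetetrahydrofolate reductase gene, stood at 0.61 (interval 0.36 to 0.88). The list was not low at 15 min, where its median was 0.23.

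The phosphate regulon had a median of -0.23, with 8 of 15 intervals below 0 and 2 above. PHO5, the repressible acid phosphatase gene and a classic model of promoter chromatin, had 167 counts in the deletion and 420 in the wild type (log2 -0.98, interval -1.25 to -0.72), with ratios of 0.31 at 15 min and 0.10 in glucose. The transporter gene PHO84 had 2135 and 3327 counts (log2 -0.29, interval -0.37 to -0.21). Amino acid genes under Gcn4 were balanced, with a median of 0.01 and 7 intervals above and 9 below 0 among 52. BAT2, which encodes the cytosolic branched-chain aminotransferase, stood at 0.81 (interval 0.69 to 0.93), while its mitochondrial paralog gene BAT1 stood at -0.40 (-0.64 to -0.16).

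Purine genes had a median of 0.02 with 3 of 16 intervals above 0 and 0 below. Iron and copper genes had a median of 0.06, with 5 of 24 above and 4 below. In that list the iron oxidase gene FET3 had 191 counts in the deletion and 406 in the wild type (log2 -0.73, interval -0.99 to -0.49), and the heme oxygenase gene HMX1 had 169 and 129 (log2 0.73, interval 0.40 to 1.08). These counts lay near the background shares of 14.5% and 13.9%.

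Galactose and hexose genes are the ones the medium acts on. The galactose regulon is driven by Gal4 and held back by Gal80 until the sensor Gal3 binds galactose. Galactokinase is encoded by GAL1, which overlaps another annotated gene. GAL1 had 49 counts in the deletion and 76 in the wild type (log2 -0.28, interval -0.83 to 0.25). The uridylyltransferase gene GAL7 had 67 and 118 (log2 -0.46, interval -0.92 to -0.02). The inhibitor gene GAL80 had 122 and 220 counts (log2 -0.50, interval -0.83 to -0.18) and the sensor gene GAL3 had 106 and 168 (log2 -0.31, interval -0.68 to 0.04). The galactose permease gene GAL2 lay above 0, with 51 and 40 counts (log2 0.68, interval 0.07 to 1.33).

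Of 10 Gal4 targets in all, 3 had an interval below 0, 1 above and 6 covered it, with a median of -0.12. The uracil permease gene FUR4 was the lowest, with 28 counts in the deletion and 70 in the wild type (log2 -0.94, interval -1.66 to -0.32), and the phosphoglucomutase gene PGM2 the most read, with 973 and 1180 (log2 0.07, interval -0.05 to 0.19). Among 16 glucose-repressed carbon genes, 4 intervals lay above and 4 below 0. The invertase gene SUC2 had 919 counts in the deletion and 1682 in the wild type (log2 -0.52, interval -0.64 to -0.41), although at 15 min its ratio was 0.64.

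Glucose transporter genes of the low-affinity kind stood above 0 from few counts. HXT3 had 34 counts in the deletion and 12 in the wild type (log2 1.73, interval 0.87 to 2.94), and HXT1 had 14 and 6 (log2 1.36, interval 0.10 to 3.24). The high-affinity transporter gene HXT2 had 729 and 609 counts (log2 0.61, interval 0.45 to 0.77). The repressor genes MIG2 and MIG3 stood at 0.50 (interval 0.02 to 1.01) and 1.23 (0.19 to 2.61), and MIG1, the principal repressor gene of glucose repression, at -0.09 (-0.22 to 0.05). Of 11 genes in this list, 6 had an interval above 0 and 0 below, with a median of 0.50. The 3 that passed 2-fold, HXT3, HXT1 and MIG3, were all read from few counts. At 15 min the list median was 0.51, with 8 intervals above 0 and 0 below. In glucose it was 0.11, with 3 above and 2 below.

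Beside SPP1, the other subunits of COMPASS were weakly read, and their ratios lay inside 2-fold. The median interval half-width of the list was 0.45 log2 units, so the size of these differences is uncertain. SET1, the catalytic subunit gene, had 52 counts in the deletion and 80 in the wild type (log2 -0.27, interval -0.80 to 0.25). SWD1 had 90 and 152 (log2 -0.40, interval -0.80 to -0.02), and BRE2 had 50 and 40 (log2 0.65, interval 0.04 to 1.31). SWD3, SDC1 and SHG1 had intervals that covered 0. Of 7 measured meiotic genes, SPO16 had 5 counts in the deletion and 19 in the wild type (log2 -1.38, interval -3.35 to -0.11), and the others covered 0. REC107, the most read of them, had 238 and 303 counts (log2 0.00, interval -0.25 to 0.25). Among 5 members of subtelomeric families, COS10 stood at -0.64 (interval -1.06 to -0.25) and AAD10 at 0.44 (0.04 to 0.85).

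Differences at 60 min were partly present in the other conditions, each of which was read from separate libraries. Of the 62 genes past 2-fold higher at 60 min, 25 had an interval above 0 at 15 min and 22 in glucose, against 12.1% and 17.6% of all genes in those conditions. Of the 26 lower genes, 11 had an interval below 0 at 15 min and 14 in glucose, against 12% and 15.7% of all genes. SPP1, the deleted gene, is among the 26 and is included in both counts. In the opposite direction, 1 of the 62 higher genes at 15 min and 4 in glucose had an interval below 0, and 0 of the 26 lower genes at 15 min and 3 in glucose had one above 0. Another 18 of the 62 and 5 of the 26 had an interval off 0 at 60 min and covering 0 in both other conditions. The genes past 2-fold numbered 88 at 60 min, 117 at 15 min (2.26%) and 63 in glucose (1.21%).

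The ratio at 60 min differed between classes of genes by their response in the first 15 min, a measure that shares no library with the 60 min pair. Of 407 genes that were at least 4-fold higher at 15 min than in glucose in both strains, 50.6% had an interval above 0 and 6.88% below, with a median of 0.21. Of 574 genes at least 4-fold lower at 15 min, 5.57% had an interval above and 27.0% below, with a median of -0.15. Past 2-fold, 16 genes of that lower class were higher (2.79%) and 8 lower (1.39%), against 1.2% and 0.501% of all genes. In the 4-fold higher class, 11 genes were past 2-fold higher (2.70%) and 0 lower. The classes were thus ordered by intervals and medians but not by 2-fold counts. The 550 genes that were 2- to 4-fold higher had 24% above and 5.27% below, with a median of 0.09, and the 573 that were 2- to 4-fold lower had 7.16% above and 22.9% below, with a median of -0.12. Without the ribosomal protein and biogenesis lists, 361 genes of the lowest class remained, with 7.76% above, 17.7% below and a median of -0.06, and 533 genes of the 2- to 4-fold lower class, with 7.32% above, 20.3% below and a median of -0.11. The order of the lower classes was thus reversed without those lists.

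**Figure D5:**
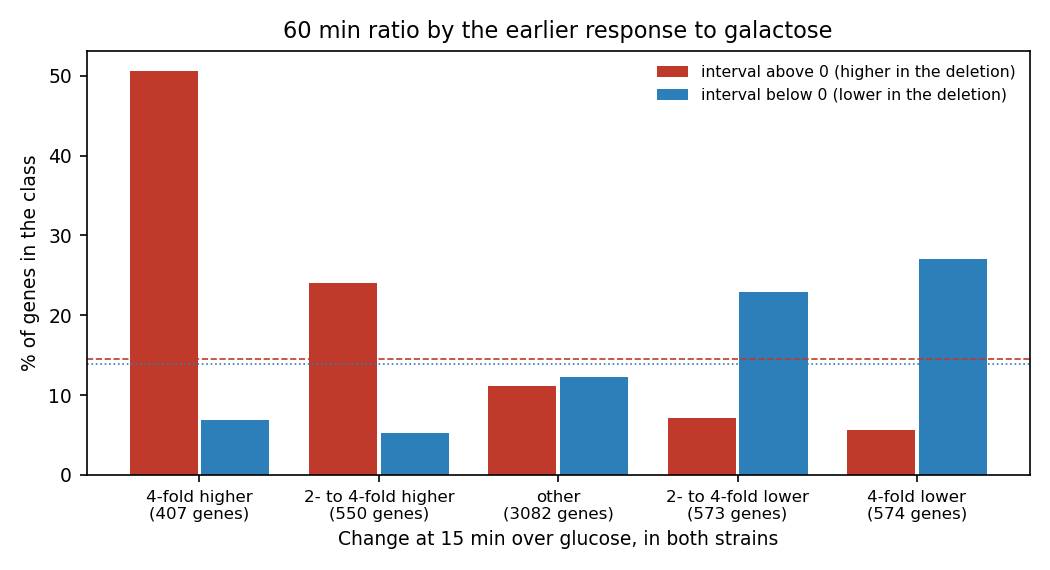
Share of genes, in percent, whose 60 min counting interval lay above 0 (red, higher in the spp1 deletion) or below 0 (blue, lower) in classes of genes by their change at 15 min over glucose in both strains. Dashed and dotted lines are the shares over all genes, 14.5% and 13.9%. The red share is 50.6% in the class furthest left and 5.57% in the class furthest right, where the blue share is 27.0%.

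The ratio differed little with position and length. Median ratios by chromosome ran from -0.08 on chromosome I to 0.01 on chromosome XIV, with chromosome XI apart at 0.09. On chromosome XI the median was 0.07 over 99 genes before MTC2 and 0.12 over 147 genes from MTC2 on, so part of the shift lay in the uncertain stretch. Within 20 kb of a chromosome end, 82 genes had a median of 0.04 with 2 past 2-fold higher and 1 lower. In 4 classes of gene length the medians lay between -0.02 and 0.01. By level, the 1297 weakest genes held 44 of the 62 higher and 17 of the 26 lower genes, while the 1297 strongest held 7 and 3, although 25.7% and 22.8% of their intervals lay above and below 0.

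At the edge of the count filter, PAU5, with a mean count of 10.7, was the weakest gene taken, with 10 counts in the deletion and 12 in the wild type at 60 min. MIC60, with a mean of 9.83, was the strongest left out, with 5 and 9 counts.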

How the data were processed

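RNA bound to FLAG-tagged RNA polymerase II was sequenced in 6 libraries, 1 per strain and condition. Whole-number counts per gene were used as deposited by the authors. Alignment with Bowtie to sacCer3 is named per the submitters' processing notes, without a version. The sources used here name no counting tool, strand setting or annotation, nor how shared reads were handled. These settings could move values of paralogs and overlapping genes.

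Of 5219 genes, 5116 were matched by identifier to a RefSeq table of assembly R64, which gave symbols and coordinates, and 33 fell below a mean count of 10 over the 6 libraries. Library totals ran from 1162190 to 4167249 counts. Counts were scaled with TMM factors over 6 libraries (edgeR 4.0.16 in R 4.3.3), and the log2 ratio is log2 CPM of the deletion minus that of the wild type, with a prior count of 2. Intervals are exact (Clopper-Pearson) 95% binomial intervals on the counts of both libraries, scaled alike, with 3 counts as the floor for an empty library. They cover counting error only. Intervals of differences between ratios add the counting variances. With 1 library per group no test was made, and genes were counted at 2-fold. The interval calculation was tested on simulated data. Python 3.11.15, scipy 1.17.1 and matplotlib 3.10.9 were used.

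The comparison, the 33 gene lists and the alternatives were chosen with earlier results of these data known, and 4 short lists (retrograde targets, methylcitrate cycle, carnitine shuttle, G1/S) after the values were seen. Genes were named by a rule: SPP1 and its neighbours, the 15 highest and 15 lowest by the interval bound nearest 0 among genes past 2-fold outside the uncertain part of chromosome XI, every member of short lists, and up to 4 members of longer lists with the largest ratio and an interval off 0. Other list members named were chosen after their values were seen. GAL10 is not reported here.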

Additional observations from a re-analysis of the deposited data

Results flagged for a closer look

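TDH2, a glyceraldehyde-3-phosphate dehydrogenase gene, had a log2 ratio of -1.09 (deletion over wild type) at 60 min and 0.21 in glucose, with the 60 min and glucose counting intervals on opposite sides of 0. Its counts were 844 in the deletion and 2292 in the wild type at 60 min, and 6118 and 3329 in glucose. MIG3, a repressor gene of glucose repression, had a ratio of 1.23 at 60 min and -0.22 in glucose, again on opposite sides. It had only 20 counts in the deletion and 10 in the wild type at 60 min, and 428 and 315 in glucose. With 1 library per strain and condition, neither difference was tested.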

How the results depend on the processing

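In all, 10 alternatives were run: library totals, library medians, RLE factors and TMM over the 60 min pair as scalings, prior counts of 0.5 and 20, no count filter, a mean count of 50, a mean count of 10 over the 60 min pair, and no genes from the uncertain part of chromosome XI. With a prior count of 20, which pulls weakly read genes toward 0, 24 genes were past 2-fold higher and 12 lower. Under the other alternatives these counts stayed within 1.5 times 62 and 26. Of 329 list medians recomputed, 0 moved by more than the list's median interval half-width. Medians near 0 changed sign in 4 cases: with library totals those of mitochondrial ribosomal proteins (-0.01), Hsf1 chaperones (-0.01) and Gcn4 amino acid genes (-0.01), and with a mean count of 50 that of glucose-repressed carbon genes (-0.0025). Of 942 values of the 157 named genes 2 moved, SPP1 (log2 -3.26) and TIR1 (log2 2.82), both with a prior count of 20. The scalings shifted the median of all genes by between -0.02 and 0.02 on the log2 scale. No paired analysis was possible because each strain had 1 library per condition, and for the same reason no library could be left out. Depth limits weakly read genes most: below 50 summed counts the median interval half-width was 1.16 log2 units, and at 1000 or more it was 0.15.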
